A study of Gallus gallus with 54 samples.

Results

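Heart-selective genes were chosen from a tissue survey of chickens (Gallus gallus) by their read counts alone. Counts were scaled to CPM, a gene's count over the total of its library times 1e6, and a gene was taken when its 18 heart libraries averaged 20 CPM or more and 8 or more times the averages of breast muscle and of spleen. The SD of its log2(CPM + 1) over the 18 hearts had to be below 1.5. The rule found 142 of the 24881 genes listed, from among 4354 genes with a heart mean of 20 CPM or more. Because these measured values chose the members, the heart level, the fold over the other tissues and the spread between hearts are given as descriptions, with no test. The difference between altitudes of origin was not used to choose them, except that the limit on the SD caps how far a member's hearts can lie apart.

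The heart is a muscle that contracts without rest. In vertebrates, the genes that its RNA holds and other tissues lack typically include cardiac forms of sarcomere proteins, calcium-handling proteins and ion channels, natriuretic peptides, which the heart secretes as hormones, and transcription factors that pattern the heart. Breast muscle of chickens is a fast, largely glycolytic skeletal muscle and shares much of the contractile machinery in other isoforms, while the spleen is an immune organ and holds little muscle. The files name genes by Ensembl identifier and do not pair them with symbols, and 0 of the identifiers matched the 25635 genes of the RefSeq table (assembly GRCg7b). No gene name, role, position or sequence is therefore given for any member, and the label could not be checked against cardiac markers. The words above are background on hearts and not a reading of these identifiers.

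The libraries came from indigenous Ethiopian chickens of 2 origins, each represented by 9 heart, 9 breast muscle and 9 spleen libraries. Low altitude birds (codes L1 to L9) were labelled as adapted to heat. High altitude birds (codes H1 to H9) were labelled as not adapted to heat. The labels give no age, sex or batch and do not state that a code is 1 bird in the 3 tissues, so p-values measure the spread between libraries. Totals ran from 12.4 to 15.2 M counts (M, 1e6) in heart, from 9.31 to 13.1 M in breast muscle and from 11.6 to 14.3 M in spleen. Some libraries stood apart from their tissue. The heart L4 had a median Spearman correlation of 0.895 with the other hearts, against 0.914 or more for the rest. The breast muscles H1, H8, H4 and H7 had 0.839 to 0.892, and every other breast muscle had 0.923 or more. These are bulk tissue samples, in which fewer cells of a type and less RNA per cell cannot be told apart.

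**Figure D1:**
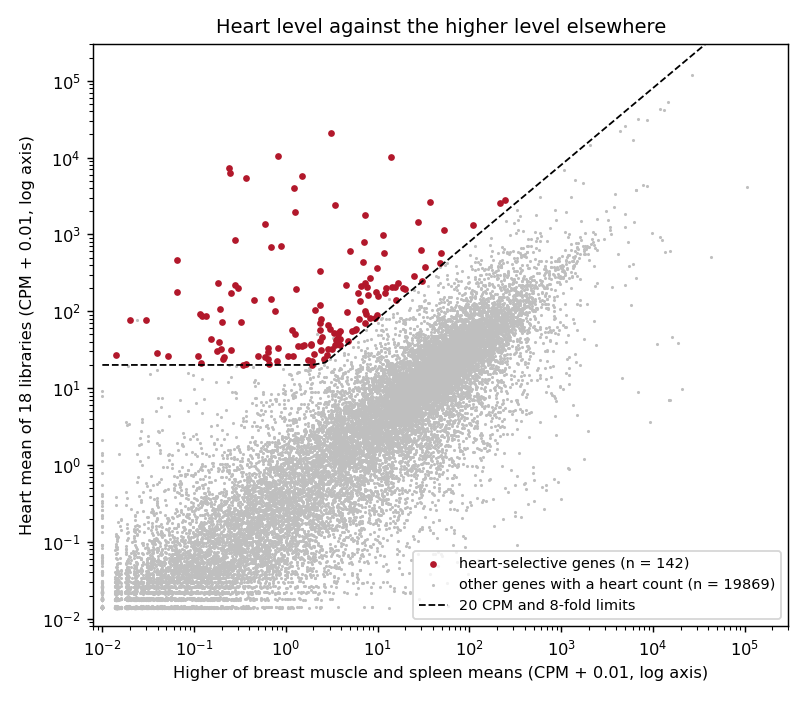
Mean level in 18 hearts (vertical axis) against the higher of the breast muscle and spleen means (horizontal axis), both as CPM + 0.01 on log axes, for each gene with a heart count. Red points are the 142 heart-selective genes above the dashed limits of 20 CPM and 8-fold, and grey points inside the limits are the 5 genes with too large a spread between hearts.

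The most abundant member, ENSGALG00000015358, averaged 20920 CPM over the hearts. It had 9248, 22385 and 28037 CPM at the lowest, median and highest of the 9 low altitude hearts and 10516, 20691 and 26102 CPM at those of the 9 high altitude hearts. The 2 ranges overlapped over most of their length, and the lowest values of all lay in L4, H7 and H4. The same gene averaged 1.75 CPM in breast muscle and 3.10 CPM in spleen. Levels in CPM are not corrected for transcript length, so an order of members is an order of counts and not of transcript numbers.

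ENSGALG00000004574 averaged 10564 CPM and was far less even. It ran from 3883 to 20299 CPM in low altitude hearts, with a median of 7481 CPM, and from 4852 to 29297 CPM in high altitude hearts, with a median of 8083 CPM. ENSGALG00000009844 averaged 10223 CPM, with 5533, 10856 and 16429 CPM at the lowest, median and highest low altitude heart and 4287, 9970 and 16381 CPM at the high altitude ones. These 3 genes were the members above 10000 CPM. Together they held 38.5% of all the CPM of the 142 members.

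Another 5 members stood between 3971 and 7357 CPM. ENSGALG00000005448 averaged 7357 CPM and was among the more even of them, with 6313 to 10202 CPM in low altitude and 4112 to 10460 CPM in high altitude hearts. ENSGALG00000004582 averaged 6337 CPM, ENSGALG00000000302 averaged 5698 CPM and ENSGALG00000008148 averaged 3971 CPM. ENSGALG00000001793 averaged 5440 CPM and had the widest range of the 15 most abundant members. Its low altitude hearts lay between 2398 and 8000 CPM, whereas its high altitude hearts included both its lowest value, 414 CPM in H4, and its highest, 17531 CPM in H3.

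The remaining 7 of the 15 most abundant members averaged between 1467 CPM (ENSGALG00000026471) and 2802 CPM (ENSGALG00000011511). Between these lay, in falling order, ENSGALG00000012541, ENSGALG00000032287, ENSGALG00000002563, ENSGALG00000004044 and ENSGALG00000016797. Levels thinned quickly below them. Of the 142 members, 18 had a heart mean of at least 1000 CPM, 65 of at least 100 CPM and 48 of less than 50 CPM, and the median member had 87.2 CPM. The 5 most abundant members held 51.2% of the members' CPM and the 20 most abundant held 84.8%.

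**Figure D2:**
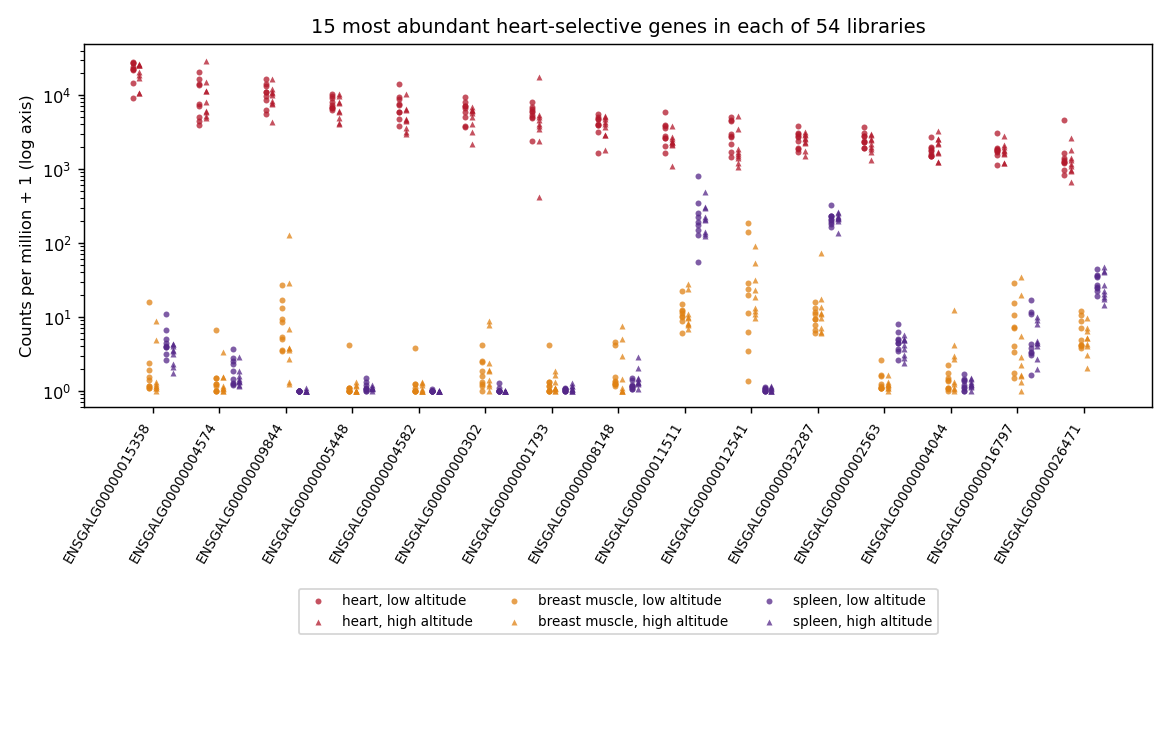
CPM + 1 on a log axis for the 15 most abundant heart-selective genes in each of the 54 libraries, in falling order of heart mean from 20920 to 1467 CPM. Circles are low altitude and triangles high altitude libraries, coloured by tissue, and the spleen points of ENSGALG00000011511 and ENSGALG00000032287 lie closest to the hearts.

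Taken as 1 pool, the 142 members held 11.3% ± 1.68 of the counts in low altitude hearts and 10.4% ± 1.68 in high altitude hearts (SD, n = 9 each). The low altitude hearts ran from 7.93% (L2) to 14.03% (L3) and the high altitude hearts from 8.17% (H4) to 13.99% (H3), so the ranges overlapped almost wholly. No test between altitudes was made of this pooled share. A share also moves with the genes outside the list. The most abundant heart gene, ENSGALG00000032142, is not a member and took 5.85% of the counts in H4 and 16.8% in L5. The 20 most abundant heart genes, 7 of them members, took 29.9% in H4 and 61.4% in L2, the hearts with the lowest member shares at each altitude. With those 20 genes removed from members and total alike, the members held 8.41% ± 0.44 in low and 7.73% ± 1.31 in high altitude hearts.

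Outside the heart the same genes held between 0.0325% and 0.105% of the counts in breast muscle libraries and between 0.0833% and 0.172% in spleen libraries. Every member had a count in every heart. A breast muscle library held a count for 87 to 125 of the 142 members and a spleen library for 111 to 122.

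**Figure D3:**
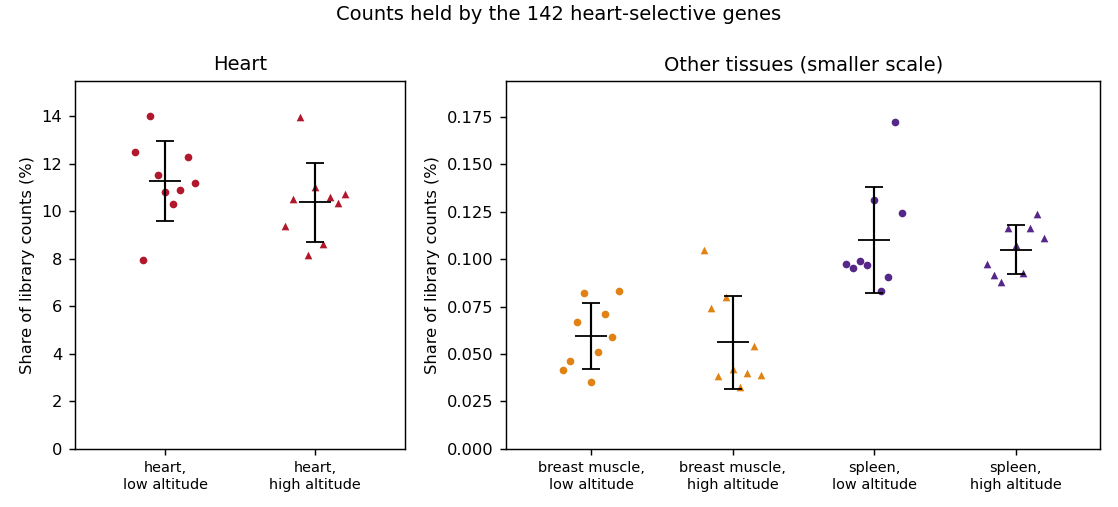
Share of each library's counts (%) held by the 142 heart-selective genes, in heart (left) and in breast muscle and spleen (right, on a smaller scale). Points are libraries, bars the mean and SD of 9, and the hearts lie between 7.93% and 14.03% while all other libraries lie at or below 0.172%.

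The depth of the gap to the other tissues differed widely between members. The ratio of the heart mean to the higher of the other means had a median of 31.6, and it was at least 100 for 48 members and at least 1000 for 17. The largest ratios belonged to ENSGALG00000005448 (31931), ENSGALG00000004582 (26976) and ENSGALG00000001793 (15389). They rested partly on a single library, the breast muscle L9, which held 3.19 CPM of the first, 2.75 CPM of the second and 3.19 CPM of the third. Without that library the ratios were 61165, 72731 and 29153. With such low levels, the ratios of these genes describe how little was counted outside the heart more than they rank the genes.

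The lowest ratios were those of ENSGALG00000006344 (8.13), ENSGALG00000037511 (8.53) and ENSGALG00000026572 (8.65), close to the limit of 8. ENSGALG00000004476 at 7.96 and ENSGALG00000041344 at 7.75 fell just outside it. At the limit on level, ENSGALG00000033510 with 20.1 CPM and ENSGALG00000028759 with 20.3 CPM were the last inside. ENSGALG00000000394 with 19.8 CPM and ENSGALG00000016709 with 19.7 CPM were the nearest outside. Since the list ends at such limits, its length is a matter of where they were set.

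The members' second tissue was spleen for 87 and breast muscle for 55. For 47 members both other means were under 1 CPM. For 39 members the spleen mean was at least 10 times the breast muscle mean, and for 20 members the breast muscle mean was at least 10 times the spleen mean. A ratio of this size does not need a clear level in either tissue. A mean of at least 10 CPM was held by 17 members in spleen and by 13 in breast muscle.

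In spleen, the highest levels were those of ENSGALG00000011511 and ENSGALG00000032287. ENSGALG00000011511 averaged 2802 CPM in heart, 246 CPM in spleen and 11.3 CPM in breast muscle. Its spleens ran from 55.1 CPM (L4) to 798 CPM (L8), with a median of 207 CPM. ENSGALG00000032287 averaged 2523 CPM in heart, 218 CPM in spleen and 12.6 CPM in breast muscle, and its spleens were closer together, from 134 CPM (H4) to 330 CPM (L8). All spleens of both genes lay below all hearts.

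In breast muscle, the highest levels were those of ENSGALG00000037050 and ENSGALG00000025937. ENSGALG00000037050 averaged 1334 CPM in heart, 109 CPM in breast muscle and 35.9 CPM in spleen, and its breast muscles ran from 20.9 CPM (L5) to 264 CPM (L7). ENSGALG00000025937 averaged 429 CPM in heart, 48.2 CPM in breast muscle and 37.5 CPM in spleen.

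Some members were uneven over the breast muscles. ENSGALG00000009844, at 10223 CPM in heart, had a median of 4.25 CPM in breast muscle but 127 CPM in H2, and the next library held 27.8 CPM. Its 18 spleens together held 1 count. ENSGALG00000012541 ran from 0.368 CPM (L8) to 183 CPM (L4) in breast muscle and stayed at a mean of 0.0540 CPM in spleen. Of 31 members that reached 20 CPM in any breast muscle, 11 had a highest library at least 10 times the median. In spleen this held for 2 of 19 such members. These members were picked by their highest library, and the rule kept their means low, which favours large ratios. All genes were not counted in this way, so the counts are descriptions. The breast muscle H1 held the highest breast muscle level of 41 members and L9 that of 23, out of 128 members with more than 3 counts in the tissue. H1 is also the breast muscle with the lowest correlation to the rest, and its part in these levels was not tested. How many of all genes were highest in H1 or L9 was not counted.

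For 4 members the 18 breast muscles held 0 counts, and for 2 members the 18 spleens did. A count of 0 over all libraries of a tissue allows a mean level of up to 0.0144 CPM in breast muscle and 0.0127 CPM in spleen, for counting error only. One of the genes with no spleen count was ENSGALG00000046564, at 108 CPM in heart.

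The rule was also applied to the libraries of 1 altitude at a time. All these libraries also chose the members above, so the values are descriptions and no test of the list. The same rule applied to the low altitude libraries alone chose 139 genes, and 120 of them (86.3%) met every limit in the high altitude libraries. Applied to the high altitude libraries alone it chose 143 genes, and 120 of them (83.9%) met every limit in the low altitude libraries. Looked up in the other altitude, the median ratio over the higher other tissue was 36.1 (first list) and 30.2 (second list). The lowest ratios were 2.14 and 3.56.

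Members differed in how even they were between hearts. The SD of log2(CPM + 1) over the 18 hearts had a median of 0.64 among members, and a median of 0.45 among the other 4212 genes with a heart mean of 20 CPM or more. The values lay apart in the lower bands of level. From 20 to 50 CPM, 48 members had a median of 0.77 against 0.45 for 2357 other genes, and from 100 to 1000 CPM, 47 members had 0.66 against 0.45 for 826 other genes. At 1000 CPM and above, 18 members had 0.50 against 0.55 for 52 other genes. Because the rule capped the SD of members, and CPM moves with the share of the most abundant genes, these medians are descriptions.

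The steadiest members were ENSGALG00000011991 (SD 0.24), ENSGALG00000005551 (0.28) and ENSGALG00000002845 (0.32). ENSGALG00000011991 had 694, 768 and 1015 CPM at the lowest, median and highest low altitude heart and 580, 736 and 1040 CPM at the high altitude ones, a spread of 1.79-fold from the lowest to the highest of all 18. Outside the heart the same gene was uneven, with a median of 1.47 CPM over breast muscles and 82.9 CPM in H1. ENSGALG00000005551 ran from 780 to 1582 CPM in low altitude and from 710 to 1331 CPM in high altitude hearts.

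The least even members were ENSGALG00000041228 (SD 1.44), ENSGALG00000002958 (1.42) and ENSGALG00000033139 (1.33). ENSGALG00000041228 had 44.9, 139 and 919 CPM at the lowest, median and highest low altitude heart and 17.2, 81.6 and 604 CPM at the high altitude ones. Its highest hearts were L4, H7 and H3, and the ranges overlapped. ENSGALG00000002958 was close to absent in 1 heart, L1, at 0.682 CPM. Its other low altitude hearts lay between 15.1 and 128 CPM and its high altitude hearts between 24.3 and 99.2 CPM. ENSGALG00000028759 likewise had 0.281 CPM in H6 alone and 4.28 CPM or more in the other hearts. Of the 142 members, 126 were higher in their lowest heart than in any breast muscle or spleen library, and 16 were not. The rule's limits on fold and SD favour such a gap, so the count is a description. It was not made for other genes.

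Another 5 genes met the limits on level and fold but had an SD of 1.5 or more, and they are named here after their values were seen. ENSGALG00000028402 split the hearts most sharply. It lay at or below 2.05 CPM in 6 hearts (L8, L9, H3, H4, H8 and H9) and between 8.94 and 302 CPM in the other 12, with 0 counts in breast muscle. ENSGALG00000031197 and ENSGALG00000033462 varied together over the hearts, from 6.81 to 349 CPM and from 5.24 to 296 CPM, and their ratio stayed between 1.02 and 1.32. Both were lowest in L4 and highest in H6. ENSGALG00000041922 reached 735 CPM in L3, 893 CPM in H4 and 348 CPM in H7, against 96.4 CPM or less elsewhere. ENSGALG00000041266 ran from 3.44 to 148 CPM.

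Members were also compared by how far they varied together from heart to heart. Log2(CPM + 1) was centred within each altitude, and Pearson correlations were taken between all 10011 pairs of members over the 18 hearts. Their median was 0.11, against 0.22 for all pairs of the 4286 genes inside the same limits of heart level and SD. A correlation over 0.7 was found for 4.23% of member pairs, beside 8.01% of the pairs of those genes. The pairs share libraries and depth. CPM is also not corrected for the share of the 20 most abundant heart genes, 29.9% in H4 and 61.4% in L2. H4 held the highest value of 25 members and L2 the lowest of 24, with other genes not counted. The part of such shifts in the correlations and groups was not tested, so these are descriptions. Average-linkage clustering at a height of 0.5 gave 10 groups of 5 or more members, which held 97 of the 142. The groups were formed on these hearts, and no test of them is given. Other genes were not clustered, so such groups are not shown to be particular to members.

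The largest group held 21 members of 22.8 to 233 CPM, with a median correlation of 0.67. Its mean level was lowest in L4, at -1.37 log2 units from the mean over hearts, and highest in H8, at 1.01. The second group held 18 members, among them the most abundant member ENSGALG00000015358 with ENSGALG00000008148, ENSGALG00000032287 and ENSGALG00000002563, and its members took 3.21% of the heart counts. It too was lowest in L4 (-1.001) and was also low in H7 (-0.80), L2 (-0.66), H4 (-0.64) and H1 (-0.56), whereas the remaining hearts apart from L5 lay above the mean.

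The third group moved the other way in the heart that stood apart. It held 15 members, ENSGALG00000026471 being the most abundant, and was highest in L4 (1.26) and lowest in H1 (-1.02). In L4, 14 members of the first group and 10 of the second had their lowest value of all hearts, while 10 members of the third had their highest. Over all 142 members, L4 held the lowest value of 34 and the highest of 20, and other genes were not counted in this way. Without L4 the median correlations within the first 3 groups were 0.61, 0.61 and 0.52, against 0.67, 0.67 and 0.64 with it.

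The seventh group was the most uneven. Its 6 members differed 10.9-fold in mean level between their highest heart, H7 (1.97), and their lowest, H1 (-1.47), and they were also high in H4 (1.42) and L5 (1.05) and low in H8 (-1.15). This group held the closest pair of all members, ENSGALG00000033139 and ENSGALG00000034813, with a correlation of 0.985. ENSGALG00000033139 had 90.5, 137 and 292 CPM at the lowest, median and highest low altitude heart and 17.4, 92.4 and 965 CPM at the high altitude ones. ENSGALG00000034813 had 47.9, 64.4 and 179 CPM and 11.5, 52.0 and 541 CPM at the same places. The first stayed between 1.48 and 2.40 times the second in every heart. Whether the genes of this pair overlap or share reads was not tested.

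**Figure D4:**
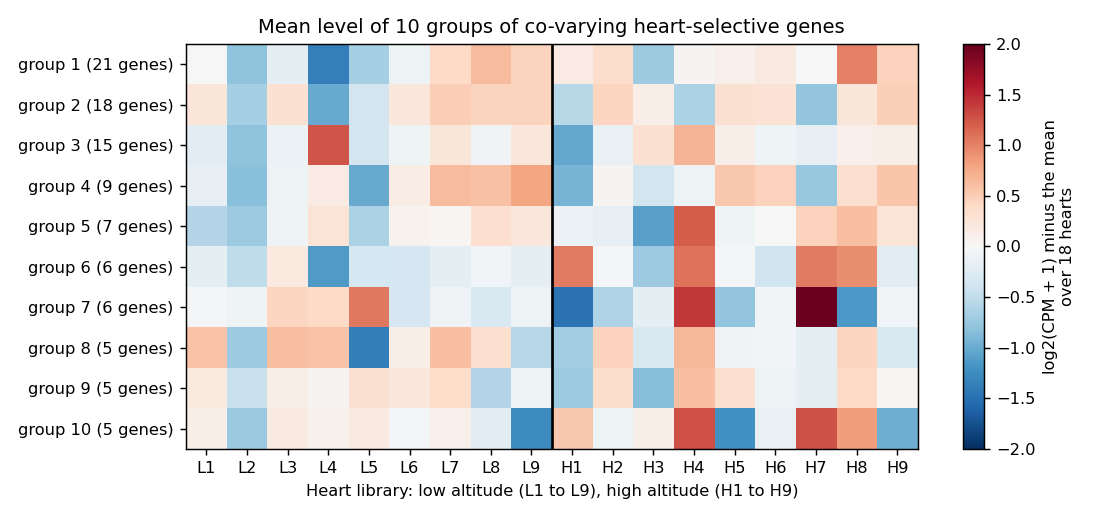
Mean level of 10 groups of co-varying heart-selective genes (rows, 21 genes at the top to 5 at the bottom) in each heart (columns, low altitude L1 to L9 left of the line, high altitude H1 to H9 right of it), as log2(CPM + 1) minus the mean over 18 hearts. The third group is highest in L4 at 1.26, where the first and second groups are lowest at -1.37 and -1.001, and the seventh group peaks in H7 at 1.97.

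The study's own comparison set birds of low altitude origin against birds of high altitude origin. All 142 members were tested in heart by edgeR's quasi-likelihood test over 11872 genes, and 0 passed an adjusted p of 0.05. Over all genes tested 0 passed as well (0%). At an unadjusted p under 0.05 there were 17 members (12.0%), beside 6.05% of all genes. Of these, 10 were higher and 7 lower in low altitude hearts, beside 3.27% and 2.78% of all genes. DESeq2 called 1 member, beside 0.185% of all genes, and limma-voom 0. The count of 17 was 28 without H3, 11 without H4 and 11 without H8, when the shares of all genes were 10.9%, 4.73% and 3.99%. Without L4, the heart that stood apart, it was 12, beside 6.89% of all genes. Of the 70 members with a ratio of at least 32 over the other tissues, 4 (5.71%) had such a p, near the 6.05% of all genes. The low and high altitude ranges overlapped for every member and for every other gene tested in heart (0% apart).

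By sign, 96 members (67.6%) were estimated as higher in low altitude hearts and 46 as lower, where 50.7% of all genes had a positive log2 fold change. The median was 0.13 for members and 0.00 for all genes, and no p is given for it. Without L4 the members estimated as higher were 82 (57.7%), beside 47.7% of all genes, and the median of members was 0.06. The fold changes of members ran from -0.90 to 1.43, with a median standard error (SE) of 0.29, and 4 members had an estimate of 1 or more in size.

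The member with the smallest p among those higher in low altitude hearts was ENSGALG00000007320. It had 8.84, 18.9 and 81.4 CPM at the lowest, median and highest low altitude heart, against 9.74, 12.5 and 24.4 CPM at the high altitude ones. The 4 low altitude hearts L6, L1, L8 and L4 lay above the highest high altitude heart, while L7 lay below all of them. On the log2 scale the difference was 1.43 with an SE of 0.33 (edgeR adjusted p = 0.486), and DESeq2 gave an adjusted p of 0.0304. Next was ENSGALG00000046564, with 68.1, 111 and 235 CPM at the low altitude hearts against 46.9, 62.0 and 172 CPM at the high altitude ones. All 9 low altitude hearts were above the high altitude median, and the estimate was 0.85 with an SE of 0.31 (edgeR adjusted p = 0.781).

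In the other direction the smallest p belonged to ENSGALG00000004334. It had 52.6, 121 and 204 CPM at the lowest, median and highest low altitude heart, against 72.5, 193 and 630 CPM at the high altitude ones. The high values came from H4, H7, H8 and H1, all above every low altitude heart. In these hearts the 20 most abundant heart genes took 29.9% (H4) to 41.5% (H8) of the counts. They took 51.2% (H3) or more in the other high altitude hearts. CPM is not corrected for such a shift, and its part in these levels was not tested. The estimate, which uses TMM scaling, was -0.90 with an SE of 0.29 (edgeR adjusted p = 0.781). ENSGALG00000030530 had 58.1, 92.0 and 134 CPM against 101, 153 and 303 CPM at the same places. Its highest hearts were again H4, H1, H7 and H8. All 9 low altitude hearts were below the high altitude median, and the estimate was -0.59 with an SE of 0.20 (edgeR adjusted p = 0.781).

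The most abundant members did not pass either. ENSGALG00000015358 had a log2 fold change of 0.27 (SE 0.26), ENSGALG00000004574 one of 0.12 (SE 0.39) and ENSGALG00000009844 one of 0.25 (SE 0.31). Of the 15 most abundant members all had a positive estimate, from 0.03 (ENSGALG00000004044) to 0.68 (ENSGALG00000004582, SE 0.35), beside 50.7% of all genes. These members share libraries and scaling, and some vary together in the second group, so the 15 signs are not independent. Other abundant genes were not counted in this way. For ENSGALG00000004044 the low altitude hearts had 1477, 1724 and 2710 CPM against 1228, 2197 and 3241 CPM, so the medians in CPM stood in the other order from the estimate, which uses TMM scaling.

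**Figure D5:**
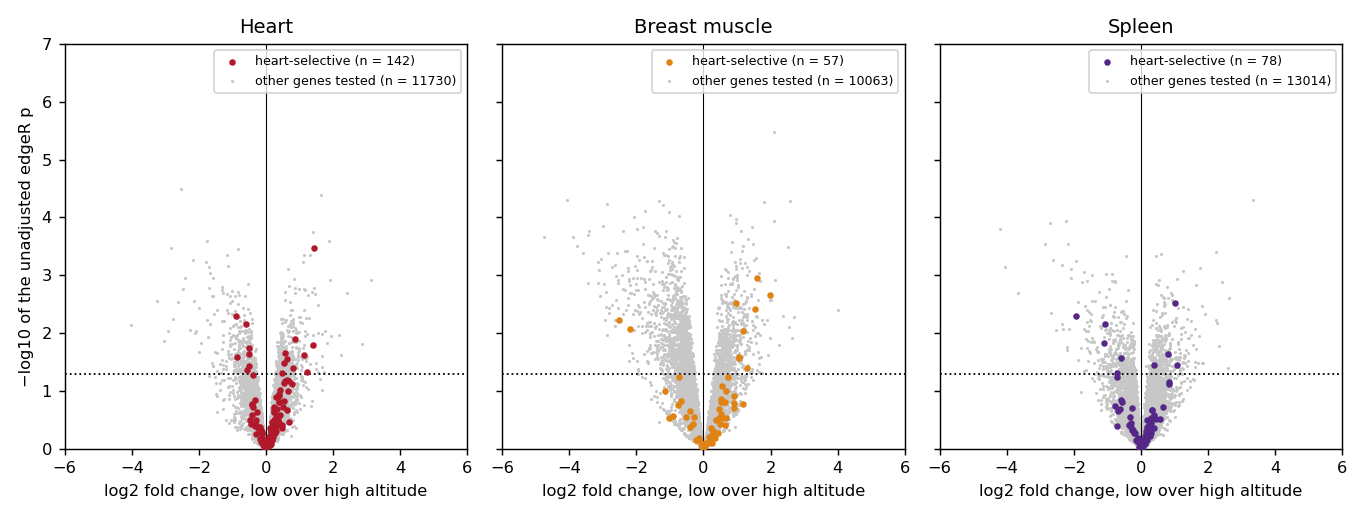
Log2 fold change, low over high altitude (horizontal axis), against −log10 of the unadjusted edgeR p (vertical axis) in heart, breast muscle and spleen, with a dotted line at the unadjusted threshold. Coloured points are the heart-selective genes that were tested (142, 57 and 78) and grey points all other genes tested. In heart 17 coloured points lie above the line.

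In breast muscle, 57 of the 142 members had enough counts to be tested and 85 did not. By edgeR 0 of the 57 passed, beside 0.00988% of all 10120 genes. At an unadjusted p under 0.05 there were 10, or 17.5%, beside 18.2% of all genes, so the share of members was near that of all genes. Of these, 8 were higher and 2 lower in low altitude muscles, beside 6.48% and 11.7% of all genes. By sign, 39 of 57 (68.4%) were estimated as higher, beside 44.9% of all genes. Without the 4 muscles that stood apart, H1, H4, H7 and H8, an unadjusted p under 0.05 was found for 9 of 61 members (14.8%). The share of all genes was 11.9%, and 0 members passed, beside 0.0192% of all genes. In that fit 41 members (67.2%) were estimated as higher, beside 49.4% of all genes. The median log2 fold change of members was then 0.17, against 0.34 with all muscles. DESeq2 called 5 of the 57 members, beside 4.63% of all genes, and limma-voom called 0. With no filter on low counts, 23 of 138 members (16.7%) had an unadjusted p under 0.05, beside 14.9% of all genes.

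Leaving out 1 library let 1 member pass by edgeR in 2 cases. Without H3 it was ENSGALG00000034171, with 4.45% of all genes past the adjusted threshold and 22.2% past the unadjusted one. Without L2 it was ENSGALG00000014988, with 0.413% and 18.7% of all genes. H3 was the highest high altitude muscle of ENSGALG00000034171, at 24.3 CPM. L2 was the lowest low altitude muscle of ENSGALG00000014988, at 7.42 CPM. Leaving out such a library favours a larger difference, so these passes add no separate evidence. A pair of the members called by DESeq2 is described here after their values were seen. ENSGALG00000014988, at 624 CPM in heart, had 7.42, 35.7 and 97.1 CPM at the lowest, median and highest low altitude breast muscle against 5.88, 15.9 and 25.3 CPM at the high altitude ones. The estimate was 1.60 with an SE of 0.42 (edgeR adjusted p = 0.0830, DESeq2 adjusted p = 0.00932), and without L2 it passed by edgeR with an adjusted p of 0.0450. ENSGALG00000011991, the steadiest member in heart, had 0.236, 1.27 and 2.48 CPM at low altitude against 0.0763, 3.03 and 82.9 CPM at high altitude, with H1 the highest. Its largest counts lay in H1, H4, H2 and H8 (771, 200, 77 and 52), and of these H1, H4 and H8 stood apart. H7, which also stood apart, had 14 counts. The part of these muscles in its estimate was not tested. The estimate was -2.53 with an SE of 0.82 (edgeR adjusted p = 0.123, DESeq2 adjusted p = 0.0426).

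In spleen, 78 members were tested and 0 passed by edgeR, as for all 13092 genes (0%). Unadjusted p under 0.05 came to 9 members (11.5%), beside 5.77% of all genes. Of these, 4 were higher and 5 lower in low altitude spleens, beside 2.95% and 2.83% of all genes. By sign, 48 of 78 (61.5%) were estimated as higher, beside 50.5% of all genes. Without the spleen H1 it was 4 of 79 (5.06%) beside 4% of all genes. DESeq2 called 0 members, beside 0.153% of all genes, and limma-voom called 0. With no filter, 14 of 140 members (10%) had an unadjusted p under 0.05, beside 6.55% of all genes. ENSGALG00000015358, the most abundant member in heart, was estimated in spleen at 0.82 with an SE of 0.33 (edgeR adjusted p = 0.844) at a mean of 3.10 CPM. Its highest spleen was L9, at 10.1 CPM, with the next at 5.76 CPM and a median of 2.92 CPM. In all, 7 low altitude spleens lay above the high altitude median.

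An unadjusted p under 0.05 in both heart and breast muscle was found for 3 of 57 members tested in both (5.26%), beside 1.35% of all genes tested in both. For heart and spleen it was 1 of 78 members (1.28%), beside 0.714% of all genes, and for breast muscle and spleen 0 of 43, beside 0.972% of all genes. These are named after their values were seen. ENSGALG00000046580 had log2 fold changes of 0.79 in heart and 1.99 in breast muscle, and ENSGALG00000043283 had 0.48 and 1.05. ENSGALG00000008439 had -0.51 and -2.20. Each had 1 sign in both tissues. The largest heart count of ENSGALG00000046580 lay in L4 (6739), the heart that stood apart, with the next in L3 (3877). Its highest muscle was also L4, at 30.3 CPM with the next at 15.1 CPM. All 9 low altitude muscles lay above its high altitude median. ENSGALG00000043283 averaged only 1.40 CPM in low and 0.81 CPM in high altitude muscles, and 5 low altitude muscles lay above its high altitude median. For ENSGALG00000008439 the largest breast muscle counts lay in H4, H1 and H8 (757, 297 and 129), muscles that stood apart. Its muscle medians were 1.52 CPM at low and 1.96 CPM at high altitude. In heart its largest counts lay in H7, H4 and H8 (10235, 9761 and 8623). ENSGALG00000038433 had log2 fold changes of 1.21 in heart and -1.10 in spleen. Its largest heart count lay in L1 (4060), with the next in L9 (1522). Its highest spleen was H1, at 16.9 CPM with the next at 6.77 CPM. The part of these libraries in its estimates was not tested. Whether a fold change differed between tissues was not tested.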

How the data were processed

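Messenger RNA libraries were made with a stranded TruSeq kit, per the labels' protocols. The files deposited by the authors hold unnormalised read counts for each gene; their notes name FastQC, HISAT2 2.0.4, featureCounts, Cufflinks, Cuffdiff and build galGal4 without roles. Whether strand was used in counting is unknown, so overlapping genes and near-identical copies are uncertain. CPM is count over file total; intervals and floors cover counting error only.

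Altitudes were compared within each tissue, low over high, with edgeR 4.0.16 in R 4.3.3 (TMM, filterByExpr, robust quasi-likelihood test, Benjamini-Hochberg over all genes tested). The test was also run on simulated counts without outlying libraries. That run cannot show how the test treats the libraries that stood apart. An SE is the fold change over the root of F. DESeq2 1.42.0 and limma 3.58.1 (voom) were alternatives. Low and high altitude libraries share only a number (see the closing section), so no block was used.

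Members and settings were chosen with earlier results of these data known. Named genes were the 15 most abundant members, those of highest and lowest SD and fold, those nearest each limit, the smallest p per direction in heart, the highest in each other tissue and the closest pair. Marker lists could not be used without symbols.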

Additional observations from a re-analysis of the deposited data

Results flagged for a closer look

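Of 66 sets of 9 libraries, 10 had a highest or lowest library whose gap to the next passed the 95% limit of Dixon's test, used as a screen. The sets share libraries, so they are not independent. Heart levels were used to choose the members, and some genes were named for their spread or small p, so the number of sets is a description and no test of the members. The share held by heart-selective genes in high altitude hearts was highest in H3, at 13.99% with the next at 11.02%.

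A further 7 sets were hearts, on the log2(CPM + 1) scale. At low altitude, ENSGALG00000001793 was lowest in L7 (11.23, next 12.26), ENSGALG00000008148 lowest in L4 (10.70, next 11.64), ENSGALG00000004044 highest in L3 (11.40, next 10.95), ENSGALG00000026471 highest in L4 (12.15, next 10.66) and ENSGALG00000002958 lowest in L1 (0.75, next 4.01). At high altitude, ENSGALG00000011511 was lowest in H1 (10.12, next 11.04) and ENSGALG00000007320 highest in H1 (4.67, next 3.98).

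In spleen, ENSGALG00000032287 was highest in L8 at low altitude (8.37, next 7.86) and lowest in H4 at high altitude (7.07, next 7.62).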

How the results depend on the processing

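The number of heart-selective genes was 142, and 221 with a 4-fold, 95 with a 16-fold and 70 with a 32-fold minimum; 94 with a minimum of 50 CPM; and 193 with TMM library sizes, 135 of them among the 142. With the 4-fold minimum the share of heart counts was 36.0% in low and 33.8% in high altitude hearts, and without the 20 most abundant heart genes 8.41% and 7.73%. Leaving out 1 heart at a time, the share lay between 10.9% and 11.7% at low and between 9.92% and 10.6% at high altitude. Members past the threshold numbered 0 by edgeR in each tissue, beside 0%, 0.00988% and 0% of all genes in heart, breast muscle and spleen. DESeq2 gave 1 in heart and 5 in breast muscle, beside 0.185% and 4.63% of all genes. The cause of this difference was not tested. With 1 library left out, members past the edgeR threshold numbered 0 in heart and spleen and 0 to 1 in breast muscle. There, ENSGALG00000034171 passed without H3 (edgeR adjusted p = 0.0323), beside 4.45% of all genes. ENSGALG00000014988 passed without L2, beside 0.413% of all genes. With 1 library left out, the median log2 fold change lay between 0.06 and 0.17 in heart, 0.28 and 0.48 in breast muscle and 0.03 and 0.16 in spleen. The call of ENSGALG00000007320 by DESeq2 was not met in 25 other fits (adjusted p up to 0.885). Of these, 18 were the edgeR test with 1 heart left out, so the fits are not independent.

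Deviations of same-numbered libraries correlated above 0.1 in 5 of 9 pairs in heart, 3 of 9 in breast muscle and 5 of 9 in spleen. In each tissue 2 of 9 low altitude libraries correlated best with their own number, number 9 being among them each time. In heart the correlations ran from -0.18 (number 7) to 0.61 (number 9). Whether libraries of 1 number share anything was not tested. With the replicate number as a block, 0 members passed in each tissue, beside 0% of all 10120 genes in breast muscle. The shares of all genes in heart and spleen are not given for that fit. In breast muscle the median log2 fold change of members was then 0.47. Low levels outside the heart, which the rule asked for, limit the tests of members at these depths: 85 were too low to test in breast muscle and 64 in spleen.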

Other observations

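In the breast muscle L9, several of the most abundant members stood far above the median muscle. ENSGALG00000015358 reached 15.1 CPM there, where the next muscle, H1, had 7.74 CPM and the median muscle 0.199 CPM. ENSGALG00000004574 reached 5.67 CPM in L9, with a median muscle at 0.166 CPM. ENSGALG00000009844 differed, with its highest muscle level in H2. Without L9 the rule chose 144 genes, with all 142 members among them.

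With a 4-fold minimum the genes chosen held 36.0% ± 1.83 of the counts in low altitude hearts and 33.8% ± 4.44 in high altitude hearts (SD, n = 9 each), against 11.3% and 10.4% for the 142 members.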
